A study of Mus musculus with 3 samples.

Results

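The genes described are 10 members of the Eph receptor and ephrin families, namely Epha2, Epha3, Epha4, Ephb1, Ephb2, Ephb3, Ephb4, Efnb1, Efnb2 and Efna5, out of 20660 genes that the arrays read by a named probe. They were measured in mouse cardiac myofibroblasts on 1-colour Agilent arrays in 3 states with 1 array each. Adherent cells had grown on plastic plates, non-adherent cells had been moved from plates into suspension, and re-adherent cells had gone back from suspension to plates. All 3 groups came from infarcted hearts of male C57BL/6J mice, taken 3 days after the left anterior descending coronary artery was tied off for good, and the CD45-negative fraction of the plated heart cells was used. No group carried a genetic change, and the age is given as 8 weeks in one label and 10 weeks in another. The protocol speaks of hearts in the plural and ties no sample to 1 animal. The states were reached one after another, so the state and the total time in culture cannot be told apart. The methods also record a large fall in cell number during suspension, so the later arrays read the cells that were left.

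The set was chosen by a measured value, the gain of Ephb1 in suspension and its loss afterwards on these same arrays, so the values below are a description and no test is attached to them. With 1 array per state there was no spread between replicates, and every error given is the technical error that the scanner software assigned to the spots. A level is the log2 of the background-subtracted signal minus the log2 of the 75th percentile of that array, and a difference is a difference between such levels. Where the software did not call a probe well above background, that array gives only a bound for it. A fold bound sets that array to its lowest signal well above background. Some brighter spots also failed the call, so such a bound is approximate.

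Eph receptors are receptor tyrosine kinases that bind ephrins on the surface of neighbouring cells, so the pair works at points of cell contact. Signals run both ways, forward into the cell with the receptor and in reverse into the cell with the ephrin, and commonly alter the actin cytoskeleton, adhesion and repulsion. Ephrin-A ligands are held by a lipid anchor and mainly bind EphA receptors. Ephrin-B ligands cross the membrane, end in a PDZ-binding motif and mainly bind EphB receptors, and EphA4 binds both classes. In the cardiovascular system ephrin-B2 and EphB4 are best known as marks of arterial and venous endothelium.

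The promoters of Ephb1, Epha2 and Efnb2 are shown because these genes had the largest differences in the set, Ephb1 in one direction and the other two in the opposite one. Each run is the 250 bases before the RefSeq start on assembly GRCm38.p6, read 5′ to 3′ on the strand of the gene, and capitals mark matches to the TEAD motif GGAATG or its reverse complement CATTCC. The Ephb1 window is chr9:102354694-102354943 on the minus strand, the Epha2 window is chr4:141300971-141301220 on the plus strand and the Efnb2 window is chr8:8661243-8661492 on the minus strand.
Ephb1: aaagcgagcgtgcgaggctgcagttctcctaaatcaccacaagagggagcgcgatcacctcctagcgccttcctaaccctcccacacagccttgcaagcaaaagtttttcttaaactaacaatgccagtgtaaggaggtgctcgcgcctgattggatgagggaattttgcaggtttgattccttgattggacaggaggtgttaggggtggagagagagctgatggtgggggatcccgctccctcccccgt
Epha2: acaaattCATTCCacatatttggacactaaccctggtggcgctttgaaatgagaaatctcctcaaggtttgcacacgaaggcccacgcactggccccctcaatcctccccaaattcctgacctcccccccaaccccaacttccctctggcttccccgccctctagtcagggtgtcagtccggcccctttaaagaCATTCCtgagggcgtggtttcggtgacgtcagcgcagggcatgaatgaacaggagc
Efnb2: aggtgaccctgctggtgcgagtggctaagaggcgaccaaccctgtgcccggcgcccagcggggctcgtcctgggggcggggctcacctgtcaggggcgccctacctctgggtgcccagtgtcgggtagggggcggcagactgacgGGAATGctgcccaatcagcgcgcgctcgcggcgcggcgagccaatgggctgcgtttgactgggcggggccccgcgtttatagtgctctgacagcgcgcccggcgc
The Epha2 window held the TEAD letters 2 times, beginning 243 and 56 bases before the start, and the Efnb2 window held them 1 time, beginning 105 bases before it. The Ephb1 window held none. Among the 10 members the only other match was in Epha3, 244 bases before its start, so 3 of 10 windows held the motif, against 12.6% of 32851 promoter windows of the same length. The AP-1 letters TGANTCA and the CArG box of SRF, searched on both strands, were in none of the 10 windows, against 6.75% and 1.47% of all windows. The member windows held 9 to 32 CpG dinucleotides, with 10 for Ephb1, 9 for Epha2 and 27 for Efnb2, where the median of all windows was 6. A match to these letters describes the sequence and does not show that a factor binds there.

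All 10 members had a probe, 12 probes in all. At least 1 array had 9 of the 10 genes well above background, and all 3 arrays had 8 of them. Epha3, a receptor known from the endocardial cushions of the embryonic heart, was at 7.67 units in adherent cells, 3.02 in suspension and 6.70 after re-adhesion. None of these was well above background, so Epha3 has only an upper bound on every array and is left out of the counts. No spot of a member was saturated or marked as an outlier.

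**Figure D1:**
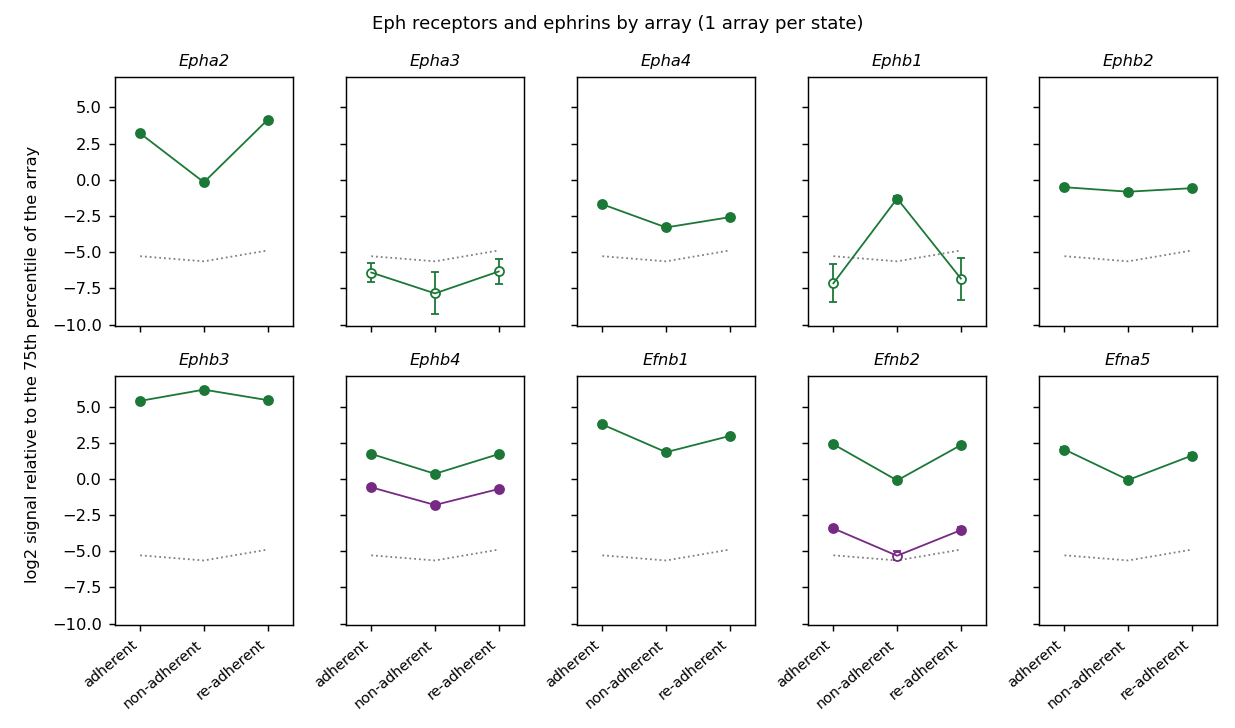
Log2 signal relative to the 75th percentile of the array (vertical axis) in adherent cells, in suspension and after re-adhesion, 1 array each, for every probe of the 10 genes. Bars are the technical error of the spot, open symbols are spots not well above background, a second colour is a second probe of the gene, and the dotted line is the lowest signal well above background on each array. Ephb1 alone is open on both plates and filled in suspension, while Epha2, Epha4, Ephb4, Efnb1, Efnb2 and Efna5 dip in suspension.

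Most of the measured genes were lower in suspension and higher again on plates, whereas Ephb1 ran the other way and was detected in suspension alone. In non-adherent against adherent cells 4 of 9 genes differed over 4-fold, compared with 13.0% of all 15394 genes measured. Epha2, Efnb2 and Efna5 were over 4-fold lower, where 5.34% of all genes were, and Ephb1 was over 4-fold higher, where 7.61% were. In re-adherent against non-adherent cells 3 of 9 differed over 4-fold, compared with 11.8% of all genes. Epha2 and Efnb2 were over 4-fold higher (5.70% of all genes) and Ephb1 over 4-fold lower (6.05%). Epha2 and Efnb2 were thus over 4-fold lower and then over 4-fold higher, as were 3.93% of all genes, and Ephb1 over 4-fold higher and then over 4-fold lower, as were 4.29%. In re-adherent against adherent cells none of the 9 differed over 4-fold (1.36% of all genes were higher and 1.29% lower, 2.64% in all) or over 2-fold (4.84% higher and 4.90% lower, 9.74% in all). The contrasts chose the set, so the shares stand beside the counts only for scale. In these bulk samples fewer cells of a type and less RNA per cell cannot be told apart.

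EphA2, which binds ephrin-A1 and also signals without ligand in many epithelial and tumour cells, had the largest difference among the genes well above background on every array. Its signal was 6008 units in adherent cells, 618 in suspension and 9599 after re-adhesion. Suspension was the low state, and the re-adherent array was higher than the first adherent array. The non-adherent level was 10.4-fold below the adherent level, a log2 difference of -3.38 ± 0.20 (technical error), and the re-adherent level was 20.0-fold above the non-adherent level. Between the plated states the log2 difference was 0.94 ± 0.20, in favour of the re-adherent one. Over the 12 alternative settings it lay between 0.47 and 1.03.

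EphA4, the receptor that takes ligands of both classes, was dimmer. It gave 201 units in adherent cells, 71.1 in suspension and 90.3 after re-adhesion. The log2 difference was -1.60 ± 0.22 in suspension and 0.71 ± 0.22 on re-adhesion, so the gain on plates was smaller than the preceding loss. The re-adherent array stayed below the adherent array by a log2 difference of -0.89 ± 0.22.

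EphB1, known from axon guidance at the optic chiasm, was at 4.59 units in adherent cells, 284 in suspension and 4.77 after re-adhesion. Only in suspension was the spot well above background. With the dim arrays set to their lowest signal well above background, non-adherent cells were 15.8-fold above adherent cells and 12.0-fold above re-adherent cells. These bounds are approximate. Before background subtraction the spot median was 56 units beside a local background of 33 in adherent cells. It was 310 beside 32 in suspension and 37 beside 31 after re-adhesion. Taken as measured, the log2 differences were 5.85 ± 1.32 and -5.53 ± 1.45, sizes that rest on plated signals not well above background. With normexp background correction, an offset of 50 and quantile normalisation they were 1.91 and -2.24, so the first no longer passed 4-fold. The 81 spots around the Ephb1 spot had a median log2 difference of -0.33 in suspension and 0.34 on re-adhesion, opposite in sign to Ephb1. A single probe read the gene, so no second probe could be compared with it.

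The genes closest to Ephb1 over both steps, among 661 others with the same calls over background, that is in suspension alone, were Thrsp, Chl1 and Il1b. They lay at Euclidean distances of 0.07, 0.24 and 0.31 on the log2 scale. Thrsp, a gene of lipid synthesis, was at 3.62 units in adherent cells and at 233 in suspension. Chl1, a neural cell adhesion gene, went from 4.30 to 309 and to 4.88 units, and the cytokine gene Il1b from 4.35 to 241 and to 4.94 units. Since all these genes were near background on both plated arrays, their distances rest on dim signals and on 3 arrays.

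EphB2 and EphB3 are partners in the positioning of cells in the intestinal crypt. Ephb2 moved little, with 456 units in adherent cells, 393 in suspension and 362 after re-adhesion. Its log2 difference was -0.31 ± 0.20 in suspension and then 0.25 ± 0.21, which changed sign with the setting, from -0.12 to 0.39. Ephb3 gave 27330.4 units in adherent cells, 50097 in suspension and 23526 after re-adhesion, so that it was highest in suspension like Ephb1, but by far less. Its log2 differences were 0.78 ± 0.20 and -0.73 ± 0.20, and the plated arrays differed by 0.05 ± 0.20.

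EphB4, the receptor of ephrin-B2 on veins, was read by a pair of probes. The brighter probe gave 2155 units in adherent cells, 890 in suspension and 1778 after re-adhesion. The dimmer probe gave 435, 199.9 and 334 units in the same order, with the same low point in suspension. The log2 differences of the brighter probe were -1.37 ± 0.20 and 1.36 ± 0.20 and that of the dimmer probe in suspension was -1.22 ± 0.21. The probes thus differed in this step by less than their errors, and the brighter one ended -0.01 ± 0.20 from the adherent level.

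The ephrin genes of the set were all lower in suspension. Ephrin-B1, whose human gene is mutated in craniofrontonasal syndrome, gave 8826 units in adherent cells, 2506 in suspension and 4233 after re-adhesion. It was 3.77-fold lower in suspension, a log2 difference of -1.91 ± 0.20, and only in part regained, with a log2 difference of 1.12 ± 0.20 on re-adhesion and -0.79 ± 0.20 between re-adherent and adherent cells.

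Ephrin-B2, the ligand of EphB4 and of the other EphB receptors, gave 3419 units in adherent cells, 648 in suspension and 2734 after re-adhesion. It was 5.65-fold lower in suspension and 5.43-fold higher on re-adhesion, and the re-adherent array ended at a log2 difference of -0.06 ± 0.20 from the adherent array. A second, dim probe gave 60.8, 17.6 and 46.6 units and was not well above background in suspension. As measured, it was there 3.70-fold below the first plated state and 3.41-fold below the later one. These sizes rest on that dim signal.

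Ephrin-A5, a lipid-anchored ligand that repels growing axons and also binds EphB2, gave 2662 units in adherent cells, 663 in suspension and 1659 after re-adhesion. The log2 difference was -2.10 ± 0.20 in suspension and 1.69 ± 0.20 on re-adhesion. Efna5, at 4.30-fold, was the member just past the 4-fold limit in suspension and Efnb1, at 3.77-fold, the member just short of it. Over the settings their differences ran from -2.31 to -1.96 and from -2.12 to -1.82. Efna5 fell short of the limit in the normexp setting (-1.96) and Efnb1 passed it with spike-in scaling (-2.12).

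**Figure D2:**
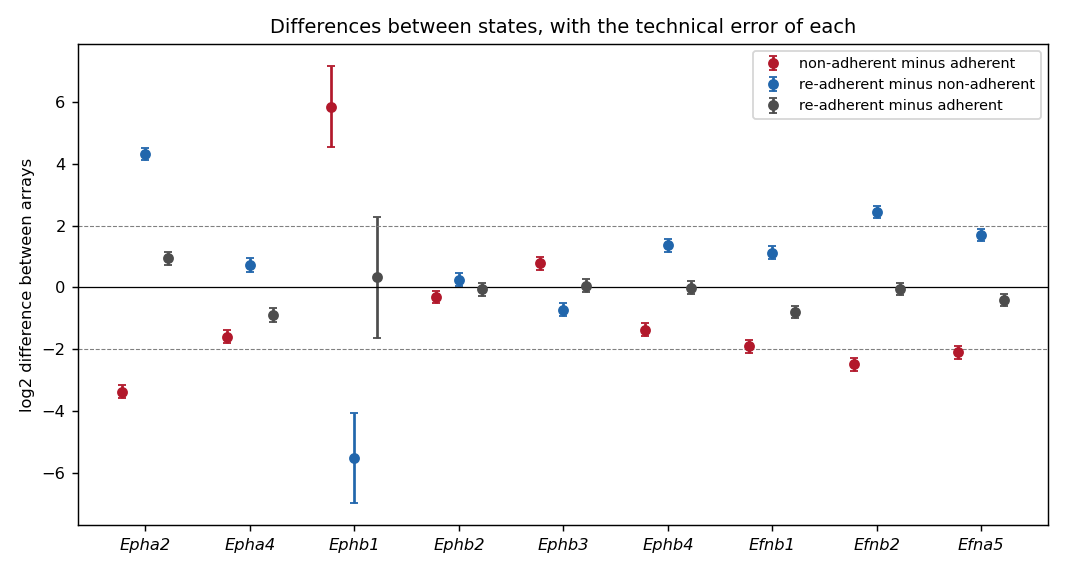
Log2 difference between arrays (vertical axis) for the 9 measured genes in the 3 pairs of states, with bars for the technical error of each difference and dashed lines at 4-fold. The points of re-adherent minus adherent lie between the dashed lines for all 9 genes, and the points of Ephb1 carry the widest bars.

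Of the 9 measured genes 7 were lower in suspension and higher on re-adhesion, compared with 45.8% of all genes. The other 2, Ephb1 and Ephb3, were higher and then lower, compared with 38.9% of all genes. For 6 of the 7 both steps were larger than 2 technical errors, with Ephb2 as the exception, where this held for 24.9% of all genes. The median difference over the 9 genes was -1.60 in suspension, 1.12 on re-adhesion and -0.06 between re-adherent and adherent cells, where the medians of all genes were -0.07, 0.08 and 0.06. The opposite signs of the steps share the non-adherent array, whose own error enters both. With the 75th percentile scaling the 8 genes well above background on every array ended within 2-fold of the adherent level, where 90.3% of all genes did, while Ephb1 was not well above background in either plated state. Under other scalings Epha4 was beyond 2-fold lower (-1.07 in the deposited matrix, -1.16 without scaling and -1.36 with spike-in probes), as was Efnb1 (-1.06 without scaling and -1.27 with spike-in probes), and Epha2 was beyond 2-fold higher with median scaling (1.03). In 4 genes the plated states differed by more than 2 technical errors, with Epha2 higher and Epha4, Efnb1 and Efna5 lower on the re-adherent array, where 30.2% of all genes differed by that much. The scaling to spike-in probes shifts the median of all genes in this pair to -0.41 and that of the members to -0.53.

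**Figure D3:**
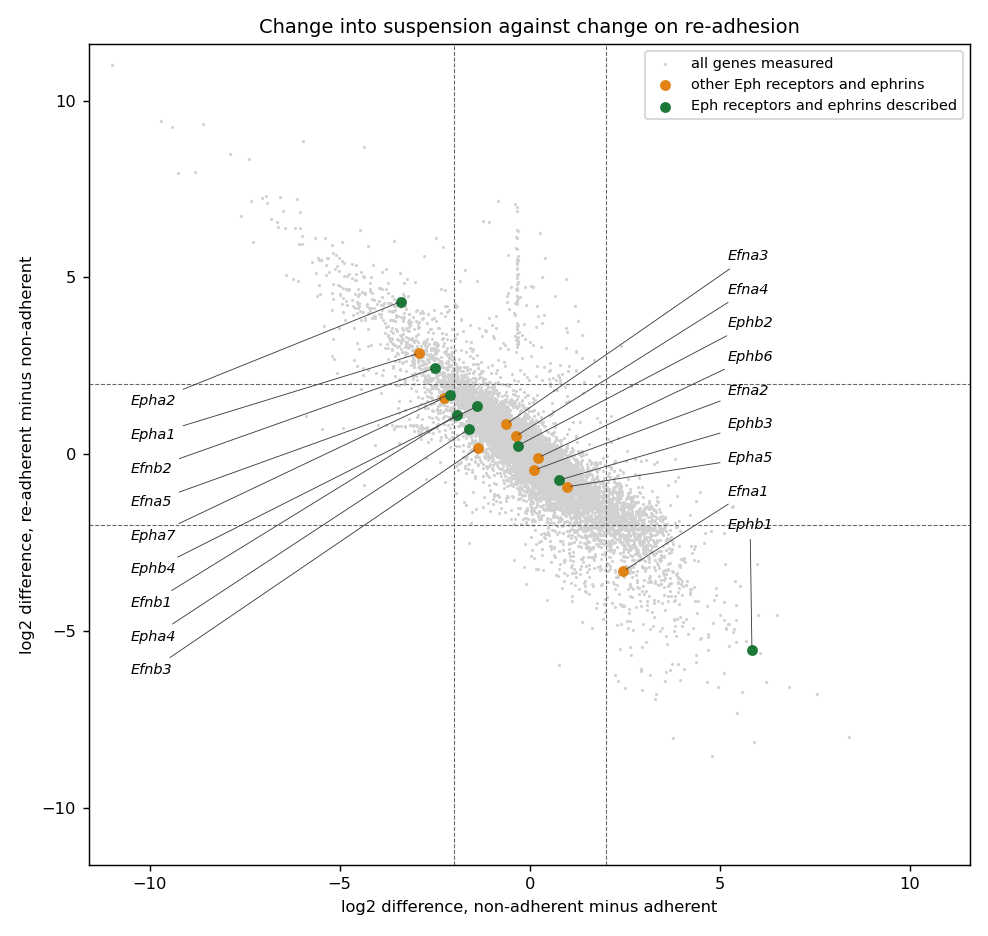
Log2 difference of non-adherent minus adherent (horizontal axis) against re-adherent minus non-adherent (vertical axis) for all 15394 genes in grey, the 9 measured members in green and 9 other family genes in orange, with dashed lines at 4-fold. Both axes contain the non-adherent array, which tilts the cloud downwards. Epha2 lies at upper left, Ephb1 at lower right and Efna1 between the centre and Ephb1.

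The rest of the family comprised 12 genes with 17 probes, and 9 of them were well above background on at least 1 array. In suspension 1 was over 4-fold higher (Efna1) and 2 over 4-fold lower (Epha1 and, by its brightest probe, Epha7). Of all genes 7.61% were over 4-fold higher and 5.34% over 4-fold lower in this step. Efna1, the main ligand of EphA2, was at 251 units in adherent cells, 1479 in suspension and 117 after re-adhesion. Its log2 differences were 2.46 ± 0.21 and -3.30 ± 0.21, the reverse of Epha2 at both steps, and it ended at -0.84 ± 0.21 from the adherent level where Epha2 ended above. Each kept its direction under all 12 alternative settings.

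Epha1, an epithelial receptor, followed the course of Epha2 with 227 units in adherent cells, 32.5 in suspension and 184 after re-adhesion. Its log2 differences were -2.90 ± 0.24 and 2.86 ± 0.25. In the normexp setting they were -1.61 and 1.62, within 4-fold. The transmembrane ligand gene Efnb3 was lower in suspension by a log2 difference of -1.36 ± 0.34 and after re-adhesion its spot was no longer well above background.

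For Epha7 the probes disagreed, so the gene as a whole is given no direction. The brightest probe had log2 differences of -2.26 and 1.60, another 0.41 and -1.08, and the dimmest, detected in suspension alone, was at least 2.34-fold higher there than in adherent cells. The measured Epha5 probe gave 13780.3 units in adherent cells, 29235 in suspension and 12042 after re-adhesion, with log2 differences of 0.99 and -0.92, and a second probe was never well above background and gives no direction. The remaining measured genes, Efna2, Efna3, Efna4 and Ephb6, a receptor without kinase activity, stayed within 2-fold in all 3 pairs. Epha6, Epha8 and Epha10 were not well above background on any array.

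**Figure D4:**
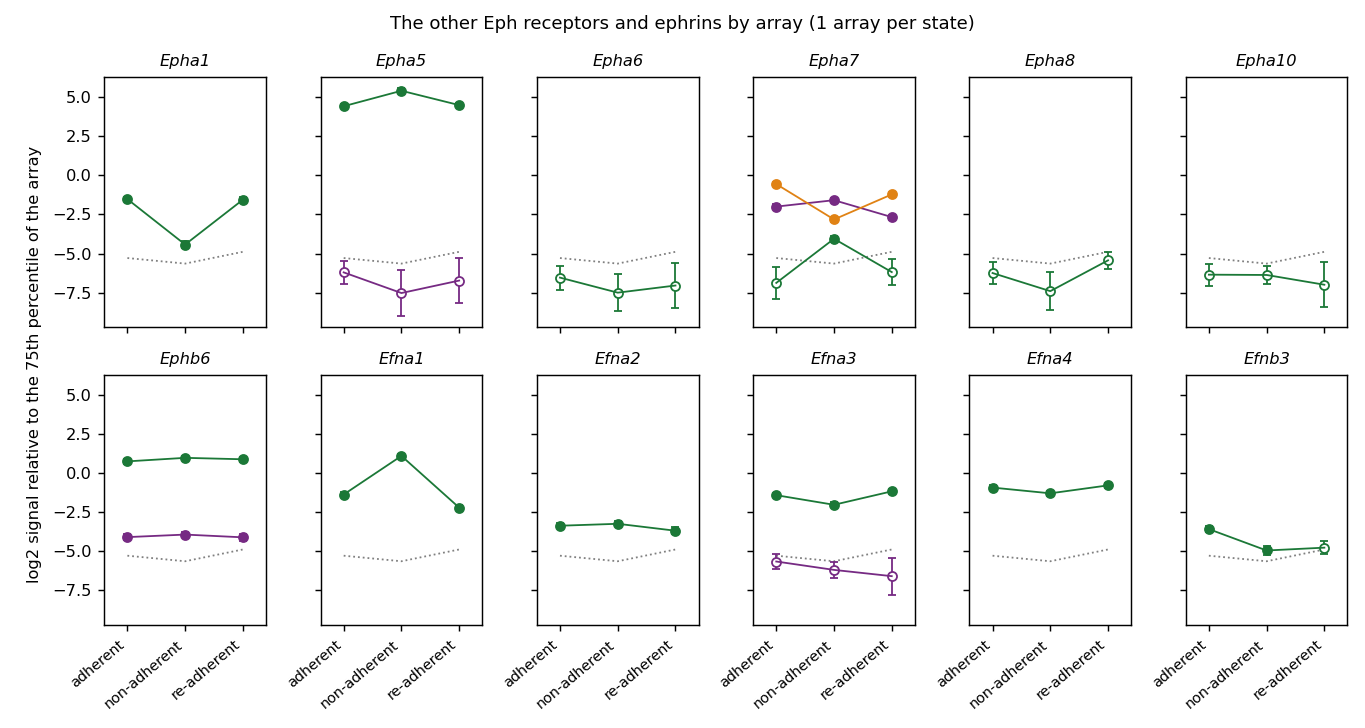
Log2 signal relative to the 75th percentile of the array (vertical axis) in adherent cells, in suspension and after re-adhesion, 1 array each, for every probe of the 12 other family genes. Symbols, colours, bars and the dotted line are as for the members. Efna1 peaks in suspension, Epha1 dips there, and the 3 probes of Epha7 run in different directions.

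Genes whose proteins pass on or end the signal were read from a pair of lists. Of 30 effectors of Eph receptors, 28 were measured. In suspension, by the brightest probe of each gene, 2 were over 4-fold higher (Vav3 and Sla) and 2 over 4-fold lower (Sipa1l1 and Grb10). These 4 of 28 stand beside 13.0% of all genes over 4-fold in this step, 7.61% higher and 5.34% lower, so the count is near the background and says nothing particular of the list. The median difference of the effectors was 0.16 in suspension and -0.02 on re-adhesion, with 16 higher and 12 lower in the first step. Sipa1l1, a GTPase-activating protein for Rap, was at 8552 units in adherent cells, 818 in suspension and 5205 after re-adhesion. Its log2 difference in suspension was -3.48, or -2.09 by its second probe. Grb10, an adaptor that binds EphB1 and the insulin receptor, went from 1669 to 252 and back to 921 units. Vav3, which acts downstream of Eph receptors, went from 182 to 1509 and to 213 units, and the adaptor Sla, best known in leukocytes, from 267 to 1753 and to 595 units.

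Of 19 partners, proteases and phosphatases, 18 had a named probe and 15 were measured. The phosphatase gene Ptpro, whose protein removes phosphate from Eph receptors, was the single gene of this list over 4-fold higher in suspension by its brightest probe, and none was over 4-fold lower, beside 7.61% and 5.34% of all genes. A dimmer probe of Rgs3, a regulator of G-protein signalling, was also over 4-fold higher and then over 4-fold lower, against its brightest probe. Ptpro went from 311 to 3094 and to 664 units, a log2 difference of 3.22 in suspension and -1.86 on re-adhesion. The protease Adam10, which cuts ephrins and receptors at cell contacts, had log2 differences of -0.11 and -0.17, each smaller than its error of 0.20. The median of the list was 0.35 in suspension and 0.03 on re-adhesion. On re-adhesion, by the brightest probe of each gene, the 2 effectors over 4-fold higher were again Sipa1l1 and Grb10 and the 1 over 4-fold lower was Vav3. No partner, protease or phosphatase passed 4-fold by its brightest probe, beside 11.8% of all genes. Over the settings the Ptpro difference in this step ran from -2.22 to -1.79 and that of Grb10 from 1.87 to 2.25, so both lay on either side of 4-fold.

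**Figure D5:**
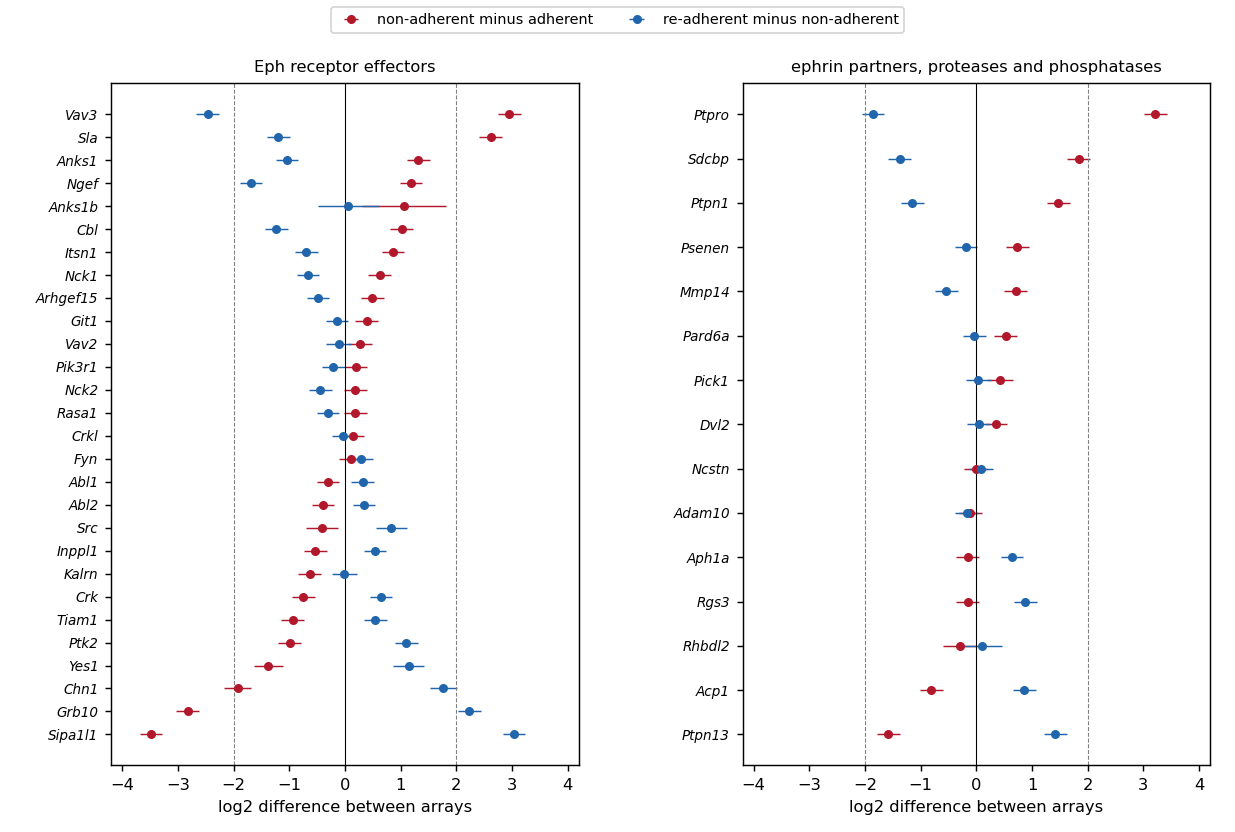
Log2 difference between arrays (horizontal axis) for 28 effectors of Eph receptors (left) and 15 partners, proteases and phosphatases (right), with the technical error as bars and dashed lines at 4-fold. Red points are non-adherent minus adherent and blue points re-adherent minus non-adherent. Vav3, Sla and Ptpro stand to the right in red, and Sipa1l1 and Grb10 to the left.

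Marker genes of cell types were read on the same arrays, as the sum of scaled signals over each list, in units of the 75th percentile. The 10 fibroblast and myofibroblast markers were well above background on all 3 arrays, with sums of 2458 in adherent cells, 644 in suspension and 2488 after re-adhesion, and Acta2 and Tagln were over 16-fold lower in suspension. Macrophage markers were also detected despite the depletion of CD45, with 9 of 9 measured genes higher in suspension, sums of 117, 807 and 255, and Cx3cr1 over 16-fold higher in re-adherent than adherent cells. Endothelial markers had sums of 24.0, 41.2 and 22.7 with 8 of 10 higher in suspension and 8 of 10 lower in re-adherent than adherent cells. The brightest probe of Kdr carried much of these sums, and without Kdr, a sum added after seeing the data, they were 9.49, 29.8 and 3.68. A second Kdr probe had log2 differences of 1.96 and -3.18, where the brightest had -0.35 and 0.74. After re-adhesion Tie1, Emcn and Cldn5 had dropped out of the range well above background, at least 15.5-fold, 13.6-fold and 56.3-fold below suspension, and Cdh5 was over 16-fold lower than in suspension. Pericyte and smooth muscle markers had sums of 52.7, 70.2 and 48.2 with 5 of 8 higher in suspension, among them Kcnj8 by at least 4.10-fold. Myh11 was at least 16.3-fold lower there, and Abcc9 was at least 5.56-fold lower on re-adhesion. Mcam carried much of the pericyte sums, and without it, also added after seeing the data, they were 18.6, 15.0 and 13.8. A second Mcam probe had log2 differences of -0.33 and -0.85, where the brightest had 0.69 and -0.68. Schwann and neural markers had sums of 2.62, 14.4 and 5.37 with 5 of 6 higher in suspension, Sox10 by less than its error. Mbp carried much of these sums, and without it, also added after seeing the data, they were 0.40, 0.72 and 0.59. Other Mbp probes had log2 differences of 0.36 and 2.17 in suspension, where the brightest had 2.63. Of all 15394 genes, 7202 were higher in suspension and 6764 were lower in re-adherent than adherent cells. Cardiomyocyte markers were dim, with sums of 1.09, 1.74 and 3.19 and with Ttn and Ryr2 not well above background on any array. All 5 measured were higher in suspension. Tnnt2 carried much of these sums, and without it, also added after seeing the data, they were 0.18, 0.37 and 0.15. Epicardial and mesothelial markers had sums of 3.59, 2.44 and 7.14. Of 5 lymphocyte markers 1 was measured. The lymphatic list, with sums of 60.7, 21.7 and 96.1, had Lyve1 detected in suspension alone, Flt4 on the re-adherent array alone and Prox1 on none. Pdpn made up nearly all of the lymphatic sums, which without it were 0.03, 0.17 and 0.05, highest in suspension. The sums of macrophage, endothelial, and Schwann and neural markers were highest in suspension, with or without the brightest gene of each list. That of pericyte and smooth muscle markers was highest there only with Mcam, and those of cardiomyocyte and lymphatic markers only without Tnnt2 and Pdpn. Ephb1, Ephb3, Efna1, Vav3, Sla and Ptpro were also highest in suspension. The part of all these cell types in the values of those genes, or in those of Efnb2 and Ephb4, was not tested.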

How the data were processed

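Total RNA was labelled with Cy3 and read on SurePrint G3 mouse arrays, 1 per state. The authors deposited Agilent Feature Extraction 10.10.1.1 output, in which the processed signal is a background-subtracted, spatially detrended intensity, with an intensity error and flags per spot. The deposited matrix held the same intensity times 1 constant per array (1.52, 1.52 and 1.62), by a rule not given in the sources used here.

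From 59305 non-control spots, outlier spots were left out (154, 180 and 175), log2 processed signal was reduced by the 75th percentile of each array (651, 697 and 541 units), and spots of a probe were averaged. The lowest signals well above background were 16.7, 14.0 and 18.3 units. Probes were named through RefSeq accessions of GRCm38.p6 without versions, which matched 21465 of 37881 transcript names. The array design used mm9, so no coordinates of probes are given. For each gene the brightest probe on average was taken among those well above background on at least 1 array, which left 15394 genes, and members passed this filter through any array, also the one on which they were high. The number of arrays limits the precision, and no p-value was computed.

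The members, the lists of genes and the 4-fold limit were chosen with earlier results of these data known. Named genes were all members, other family genes well above background, pathway genes over 4-fold different, cell markers over 16-fold different and the 3 genes closest to Ephb1. Alternatives covered 6 scalings, normexp, floored signals, 2 filters, the mean of probes and outlier spots kept. Normexp used the median spot signal in place of the mean. Counting was tested on simulated data. Python 3.11.15, pandas 2.3.3 and limma 3.58.1 were used.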

Additional observations from a re-analysis of the deposited data

How the results depend on the processing

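No paired analysis was possible because each state has 1 array, which also leaves no replicate to omit. No member that differed over 4-fold changed direction under the 12 alternatives. With normexp 2 members differed over 4-fold in suspension in place of 4 and 0 were higher in place of 1 (Ephb1 and Efna5 were inside 4-fold), the median was -1.26 in place of -1.60, and the cause was not tested. With the filter on all 3 arrays 0 were higher in suspension and 0 lower on re-adhesion, because Ephb1 is left out. At 2-fold 7 differed in suspension, 6 of them lower, and 6 on re-adhesion, 5 of them higher, beside 31.9% of all genes in each step, 14.7% lower in suspension and 15.6% higher on re-adhesion. At 16-fold 1 differed in suspension and 0 were lower, and on re-adhesion 1 was higher (Epha2) and 1 lower. The 1 in suspension and the 1 lower are Ephb1 by signals not well above background, and its bounds of 15.8-fold and 12.0-fold are under that limit. Of all 15394 genes, 84 were over 16-fold higher and 158 lower in suspension, and 240 were higher and 133 lower on re-adhesion. The median on re-adhesion, 1.12, was 0.85 with the deposited matrix, 0.76 without scaling and 0.85 with spike-in probes. The median between re-adherent and adherent cells, -0.06, was -0.32 without scaling and -0.53 with spike-in probes. These settings moved the medians of all genes as well, in this pair to -0.20 and -0.41 and on re-adhesion to -0.20 (matrix), -0.28 (no scaling) and -0.19 (spike-in). Signs between the plated states changed with the setting for Ephb1, Ephb2, Ephb3, Ephb4 and Efnb2. Signals near 16.7, 14.0 and 18.3 units or lower give only bounds, which limits Ephb1 and Epha3.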
